A study of Mus musculus with 39 samples.

Results

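Neutrophil granule and calprotectin genes were followed through the kidney, liver, lung and skin of perforin-deficient mice. The 7 genes, S100a8, S100a9, Retnlg, Csf3r, Ngp, Camp and Ltf, were taken by symbol from 24537 gene entries in the table of kidney, liver and lung and from 52508 entries in the table of skin, and each had 1 entry in both. The series holds 39 libraries of RNA from whole perfused tissue, prepared with a bulk form of MARS-seq, a method that counts the 3′ ends of transcripts. All mice carried Prf1-/- on the C57BL/6 background and thus lacked perforin, the pore-forming protein of cytotoxic lymphocytes, and wild-type libraries were not analysed here. The young group was 3 months old and was not injected (4 libraries each of kidney, liver and lung, and 3 of skin). Mice of the other groups were 20 months old and had received, from 18 months on, either ABT-737 at 25 mg/kg, an inhibitor of anti-apoptotic BCL-2 family proteins, or its DMSO-based vehicle, by intraperitoneal injection on 2 consecutive days at the start of each of 2 months, with 3 libraries per group and tissue. A difference between vehicle and young mice thus joins age and injection, which cannot be told apart.

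Neutrophils are made in the bone marrow, where their granules fill in sequence during maturation. Ltf (lactoferrin, an iron-binding protein), Camp (the cathelicidin antimicrobial peptide) and Ngp (neutrophilic granule protein) are specific-granule genes transcribed mainly in maturing marrow precursors and largely shut off in circulating cells. S100a8 and S100a9 encode the subunits of calprotectin, a metal-binding protein that fills the neutrophil cytoplasm, and their transcripts persist in mature neutrophils and monocytes. Retnlg encodes a secreted resistin-like protein of mouse neutrophils, and Csf3r is the receptor for G-CSF, the cytokine that drives neutrophil production. Calprotectin is also made by activated keratinocytes, and lactoferrin by glandular epithelia. In tissue RNA, fewer cells of a type and less RNA per cell cannot be told apart.

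On mm10, S100a8 (chr3:90669071-90670034, plus strand) and S100a9 (chr3:90692630-90695721, minus strand) lay 22.6 kb apart on chromosome 3. Camp (chr9:109847377-109849456, minus strand), Ngp (chr9:110419808-110423012, plus) and Ltf (chr9:111019292-111042766, plus) lay on chromosome 9, with 570352 bases between Camp and Ngp and 596280 between Ngp and Ltf. Retnlg was at chr16:48872608-48874498 and Csf3r at chr4:126024659-126044975, both on the plus strand. No other GENCODE vM21 gene lay within 2000 bases of any of the 7. The 250 bases before each RefSeq start (GRCm38.p6) were searched on both strands for TTGCNNAA, a form of the site bound by C/EBP factors, which direct granulocyte maturation, and for TATAAA, the core of a TATA box. TTGCNNAA was found before 4 of the 7 genes (S100a9, Retnlg, Ngp and Ltf) and in 9.56% of all 32851 promoters in that table, and TATAAA before 1 of the 7 (S100a8) and in 12.4% of all. The promoters of both calprotectin subunits are shown because the pair differs in these letters, and those of Ngp and Ltf because their matches lie nearest the start, at 11 to 4 and 75 to 68 bases before it. Capitals mark TTGCNNAA on either strand, or TATAAA in S100a8.
S100a8, chr3:90668821-90669070, plus strand: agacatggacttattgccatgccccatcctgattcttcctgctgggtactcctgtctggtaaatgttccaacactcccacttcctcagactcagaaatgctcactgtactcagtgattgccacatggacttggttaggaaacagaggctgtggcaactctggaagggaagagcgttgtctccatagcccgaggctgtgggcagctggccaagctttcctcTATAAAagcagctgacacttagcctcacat
S100a9, chr3:90695722-90695971, minus strand: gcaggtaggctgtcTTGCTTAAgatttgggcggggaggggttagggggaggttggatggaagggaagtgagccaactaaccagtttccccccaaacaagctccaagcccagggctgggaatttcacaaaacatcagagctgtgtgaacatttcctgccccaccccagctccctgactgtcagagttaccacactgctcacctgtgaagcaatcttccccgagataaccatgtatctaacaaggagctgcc
Ngp, chr9:110419558-110419807, plus strand: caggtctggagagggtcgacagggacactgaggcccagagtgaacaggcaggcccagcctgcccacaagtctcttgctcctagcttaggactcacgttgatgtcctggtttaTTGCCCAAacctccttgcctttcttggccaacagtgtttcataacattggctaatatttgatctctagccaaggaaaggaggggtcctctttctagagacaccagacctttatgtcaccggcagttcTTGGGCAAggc
Ltf, chr9:111019042-111019291, plus strand: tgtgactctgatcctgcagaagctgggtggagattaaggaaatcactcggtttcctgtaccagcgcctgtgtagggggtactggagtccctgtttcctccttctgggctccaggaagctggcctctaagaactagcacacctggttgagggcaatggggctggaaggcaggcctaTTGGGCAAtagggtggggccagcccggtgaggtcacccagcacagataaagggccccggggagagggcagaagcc

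Libraries held 1046508 to 2600092 counts in lung, 1431814 to 3513311 in kidney, 223957 to 891116 in liver and 1493411 to 3842808 in skin. A gene with 3 counts, taken here as the floor of detection, stood at 1.12 to 3.16 CPM (counts per 1e6 counts of the library, scaled by TMM) in lung and at 3.51 to 13.1 CPM in the shallower liver libraries. The usual expression filter of edgeR kept 5 of the 7 genes in lung (not Ngp or Camp) and none in kidney, liver or skin, so tests outside lung come from the same model without a filter. The labelled tissues carried their markers: the summed level of 6 hepatocyte genes was 43928 to 77484 CPM in liver and at most 521 CPM in kidney and 192 CPM in lung, and the alveolar and club cell genes reached 28049 to 60659 CPM in lung.

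**Figure D1:**
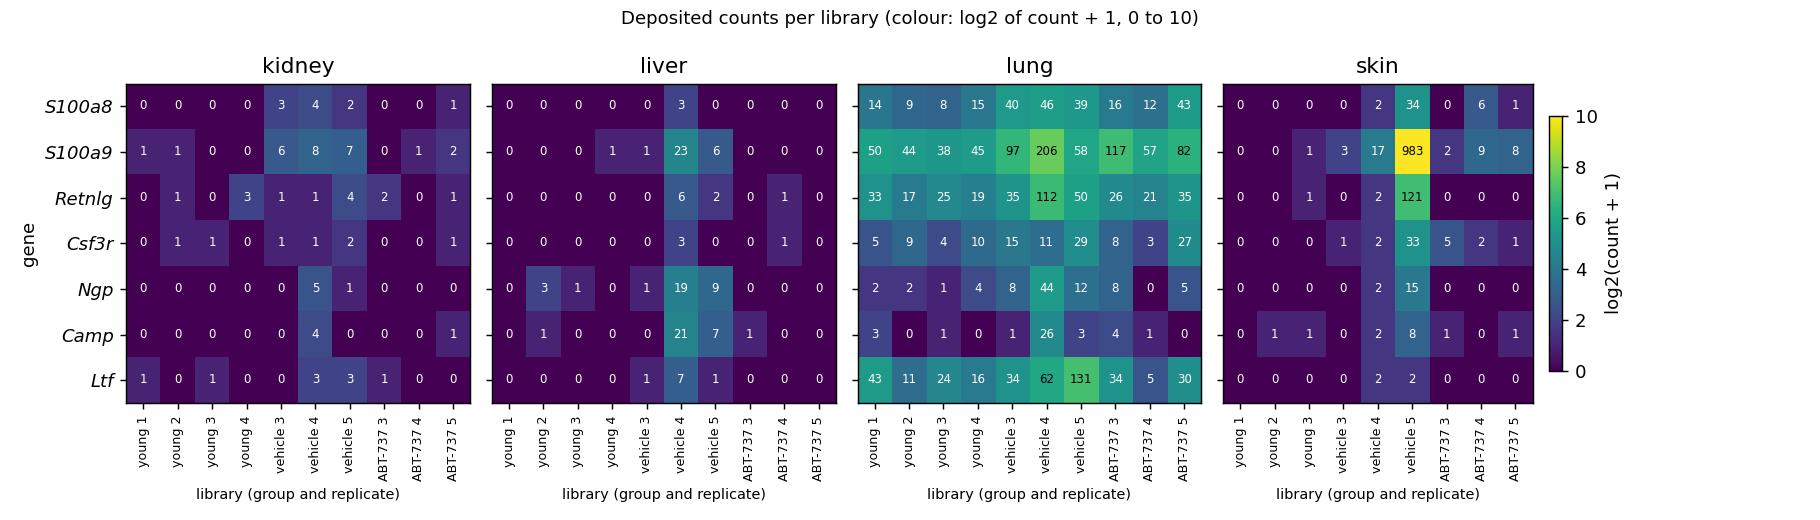
Deposited counts of the 7 genes (vertical axis) in each of the 39 libraries (horizontal axis, by tissue, group and replicate label), with colour on a log2(count + 1) scale from 0 to 10. Lung holds counts of most genes in every library, while outside lung the counts gather in vehicle libraries, above all liver replicate 4 and skin replicate 5, where S100a9 reached 983 counts.

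In young mice, the lung was the main site of these transcripts. S100a9 had 50, 44, 38 and 45 counts in the 4 young lungs, 1, 1, 0 and 0 in the young kidneys and 0, 0, 0 and 1 in the young livers. S100a8 had 14, 9, 8 and 15 counts in lung and none in 8 libraries of kidney and liver. Retnlg stood at 33, 17, 25 and 19 counts in lung, Ltf at 43, 11, 24 and 16 and Csf3r at 5, 9, 4 and 10, against at most 3 counts of any of them in a young kidney and none in a young liver. The lungs did not overlap with the kidneys or livers for any of these 5 genes, and the share of all genes that separate so was not counted.

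In a single model of the 30 kidney, liver and lung libraries (edgeR quasi-likelihood test, Benjamini-Hochberg adjustment over 13107 genes), 6 of the 7 genes were called higher in young lung than in young kidney, where 32.6% of all genes tested were called in that direction. Camp was the exception (adjusted p = 0.124), with 3, 0, 1 and 0 counts in lung and none in kidney. Against young liver, 5 of 7 were higher in lung (37.6% of all genes were), and Ngp and Camp were not called: Ngp had 2, 2, 1 and 4 counts in lung and 0, 3, 1 and 0 in the much shallower livers. The filter kept S100a8, S100a9, Retnlg, Csf3r and Ltf in lung and no member in kidney or liver alone. Their calls are thus not independent of the filter, and the shares over all genes are no like background. Without a filter, 6 were called against kidney and 5 against liver. In those fits 49.7% and 44% of 18486 genes were called in either direction. Over pooled counts, the ratio of lung to kidney was 125 for S100a9 (exact 95% interval 34.2 to 1043, counting error only), 66.6 for Ltf (17.9 to 558), 33.3 for Retnlg (12.6 to 125) and 19.8 for Csf3r (5.0 to 172). S100a8, with no count in the young kidneys, was at least 21.7-fold higher in lung when the kidneys were set at the floor of 3 counts over the group, and at least 2.92-fold higher than in liver. Kidney and liver differed for Ngp, which was called lower in kidney (adjusted p = 0.0148, with 41.2% of all genes called in either direction) on 4 liver counts, and the call was lost without young liver replicate 2.

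**Figure D2:**
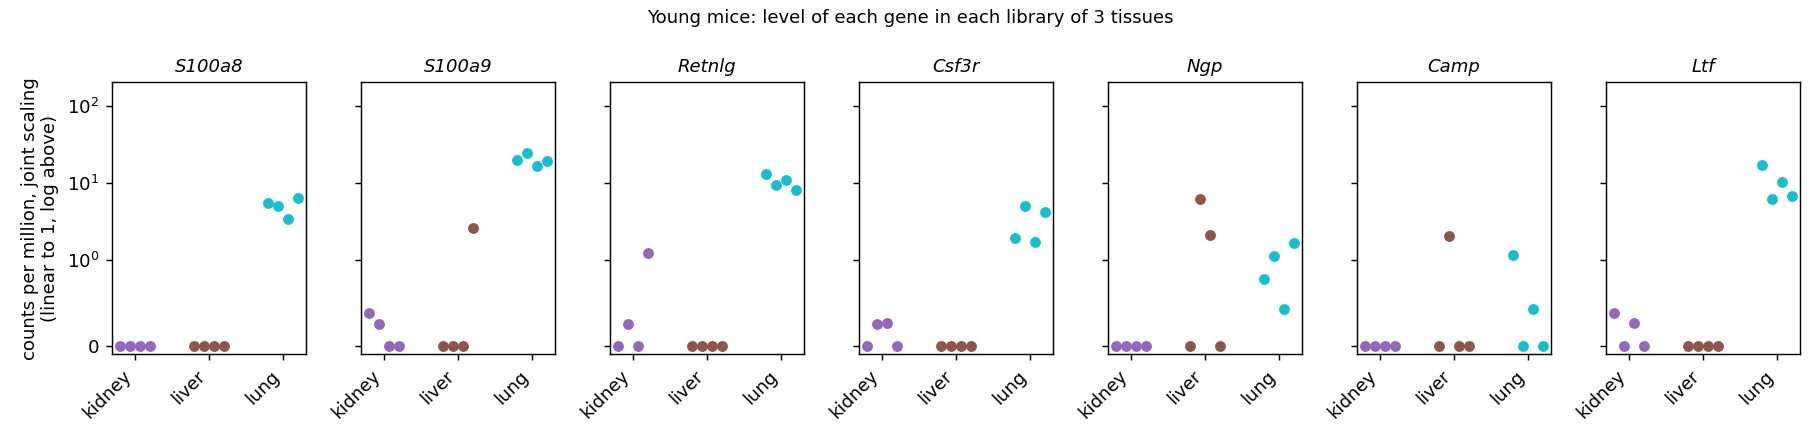
Level of each gene (CPM on the joint scaling, linear to 1 and logarithmic above) in the 4 young libraries of kidney, liver and lung, 1 point per library. For S100a8, S100a9, Retnlg, Csf3r and Ltf each lung lies above each kidney and liver, whereas for Ngp and Camp a liver library reaches the highest level.

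Of the calprotectin subunits, S100a8 was higher in the lungs of vehicle-treated old mice than in young lungs, and S100a9 was not called. S100a8, in young lungs 1 to 4, stood at 6.87, 6.26, 4.34 and 7.80 CPM and in vehicle replicates 3, 4 and 5 at 26.8, 19.7 and 14.6 CPM, so that the groups did not overlap. Its means were 6.32 ± 1.46 (SD, n = 4) and 20.4 ± 6.15 CPM (SD, n = 3), a log2 fold change of 1.66 ± 0.36 (SE; edgeR, adjusted p = 0.00921). S100a9 stood at 24.5, 30.6, 20.6 and 23.4 CPM in young lungs and at 65.1, 88.3 and 21.7 CPM in vehicle lungs. Vehicle replicate 5 lay within the young range, and the log2 fold change of 1.23 ± 0.40 (SE) missed the threshold (edgeR, adjusted p = 0.0551), and leaving out each library in turn gave 0.78 (adjusted p = 0.196) without vehicle replicate 4 to 1.64 (adjusted p = 0.0118) without vehicle replicate 5, with the threshold passed in 2 of 10 fits.

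Retnlg rose as well, from 16.2, 11.8, 13.6 and 9.88 CPM in young lungs to 23.5, 48.0 and 18.7 CPM with vehicle, with no overlap and a log2 fold change of 1.22 ± 0.35 (SE; edgeR, adjusted p = 0.0335). Without vehicle replicate 4 the log2 fold change of Retnlg was 0.69 (adjusted p = 0.157), and its call was also lost without any 1 of the 4 young lungs. Ltf, at 21.1, 7.65, 13.02 and 8.32 CPM in young lungs and 22.8, 26.6 and 49.0 CPM in vehicle lungs, did not overlap either, but its log2 fold change of 1.38 ± 0.44 (SE) gave an adjusted p of 0.0541 (edgeR). Csf3r overlapped between the groups, with 2.45, 6.26, 2.17 and 5.20 CPM against 10.1, 4.72 and 10.8 CPM (log2 fold change 1.10 ± 0.53, adjusted p = 0.178).

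In all, 2 of the 5 tested genes were called, where 12.9% of 11949 genes were called in lung between these groups, and the median log2 fold change of the 5 was 1.23. The count was 4 by DESeq2. Vehicle and ABT-737 lungs with the same replicate label deviated together (correlations 0.185, 0.3 and 0.433), though vehicle 4 with ABT-737 3 reached 0.315. With the replicate number as a block 1 gene was called: S100a9 (adjusted p = 0.0405), while S100a8 and Retnlg were at adjusted p = 0.106 and 0.104. That block also joined young lungs 3 and 4 to old lungs of those numbers, which no label relates. It is thus no paired check of vehicle against young. Without vehicle replicate 4, S100a8 and Ltf were the 2 genes called.

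Ngp and Camp, below the filter, had 2, 2, 1 and 4 and 3, 0, 1 and 0 counts in young lungs, and 8, 44 and 12 and 1, 26 and 3 counts in vehicle lungs. The unfiltered fit called Ngp (log2 fold change 2.88 ± 0.69, adjusted p = 0.00777) and not Camp (adjusted p = 0.0721). It called 5 of the 7 genes, with Ltf and S100a9 now past the threshold, where 10.6% of 17620 genes were called. Vehicle replicate 4 held 44 of the 64 vehicle counts of Ngp and 26 of the 30 of Camp. The pooled ratio of vehicle to young was 7.93 for Ngp (exact 95% interval 3.93 to 18.1, counting error only) and 3.87 (1.68 to 9.64) without that library, and for Camp 8.36 (2.95 to 32.7) and 1.74 (0.324 to 9.34).

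**Figure D3:**
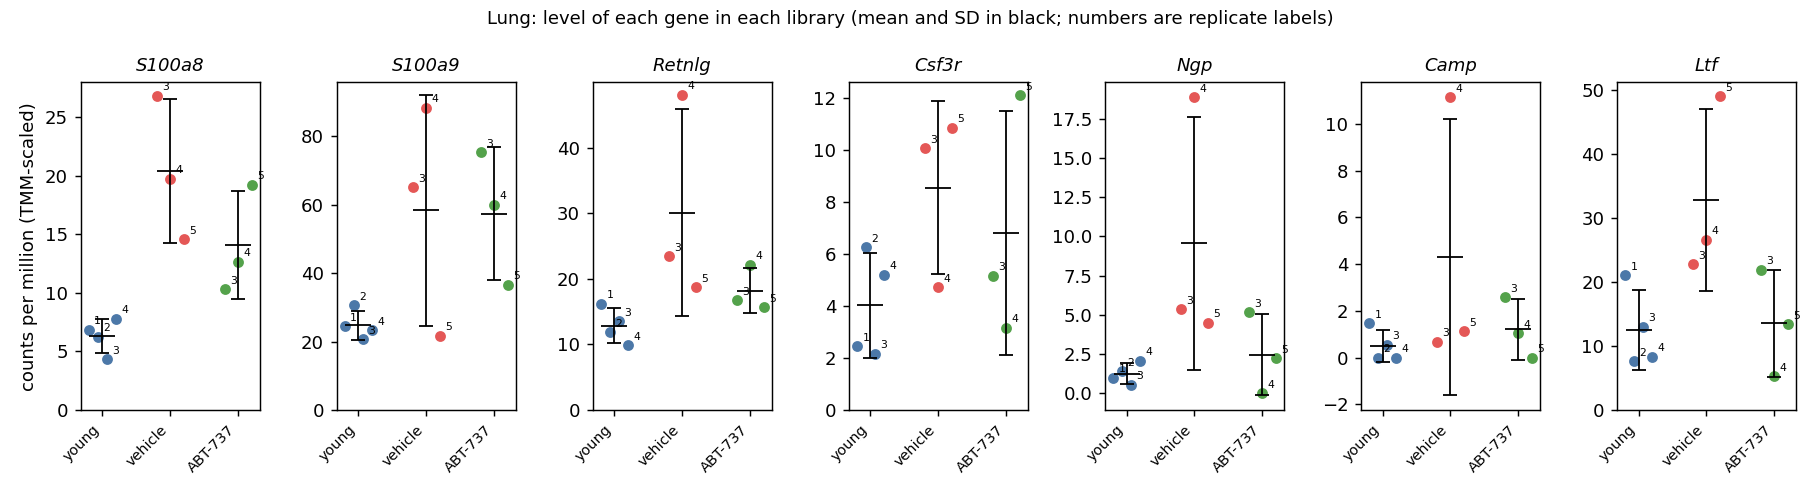
Level of each gene in lung (CPM, TMM-scaled; each panel has its own linear axis) by group, 1 point per library with its replicate label and the mean and SD in black. S100a8 in the 3 vehicle lungs (14.6 to 26.8 CPM) lies above all 4 young lungs, whereas for Ngp and Camp the vehicle mean rests on replicate 4.

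ABT-737 did not bring a called change in lung. S100a9 was at 75.4, 60.1 and 36.7 CPM in ABT-737 replicates 3, 4 and 5, a mean of 57.4 ± 19.5 (SD, n = 3) beside 58.4 ± 33.8 CPM with vehicle, and its log2 fold change was -0.03 ± 0.42 (SE; edgeR, adjusted p = 0.981). S100a8 stood at 10.3, 12.6 and 19.2 CPM and overlapped with the vehicle lungs (log2 fold change -0.49 ± 0.37, adjusted p = 0.529). Ltf was the only 1 of the 5 whose groups did not overlap, with 21.9, 5.27 and 13.4 CPM all under the lowest vehicle lung, yet its log2 fold change of -1.24 ± 0.48 had an adjusted p of 0.230 (edgeR). Retnlg, at 16.7, 22.1 and 15.7 CPM, had -0.75 ± 0.38 (adjusted p = 0.349), and Csf3r, at 5.15, 3.16 and 12.1 CPM, had -0.22 ± 0.54 (adjusted p = 0.870). None of the 5 was called by edgeR or DESeq2, and 1 (Ltf) had an unadjusted p under 0.05. Of all 11949 genes, 0% were called by edgeR in this comparison (1919 at an unadjusted p under 0.05), and DESeq2 called 342. Ngp had 8, 0 and 5 counts with ABT-737 and Camp 4, 1 and 0. Pooled, their levels with vehicle were 3.59 times (exact 95% interval 1.96 to 7.11, counting error only) and 4.38 times (1.68 to 14.4) those with ABT-737. Without vehicle replicate 4 the ratios were 1.75 (0.828 to 3.83) and 0.91 (0.181 to 4.23), so that the direction of Camp turned. Without a filter neither was called (adjusted p = 0.196 and 0.409, with 2.04% of all genes called).

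Set against young lungs, ABT-737 lungs had S100a9 and S100a8 at log2 fold changes of 1.21 ± 0.40 (adjusted p = 0.111) and 1.17 ± 0.37 (adjusted p = 0.0959). Neither overlapped with the young group, and neither was called. Retnlg (0.47 ± 0.37), Csf3r (0.88 ± 0.55) and Ltf (0.14 ± 0.47) were not called either, with 2.55% of all genes called. The comparisons share their libraries, since each group of lungs enters a pair of them.

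**Figure D4:**
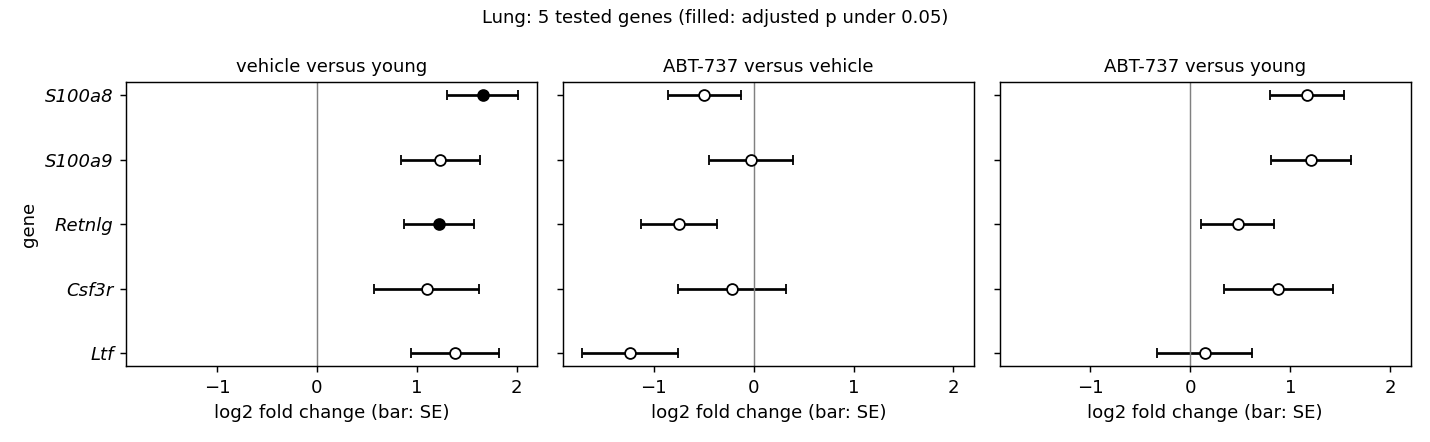
Log2 fold change (horizontal axis; bar, SE) of the 5 tested genes in lung for vehicle versus young, ABT-737 versus vehicle and ABT-737 versus young. Filled points passed an adjusted p of 0.05: S100a8 (1.66) and Retnlg (1.22) in the first panel and none in the others.

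On lists of other neutrophil-related genes, some but not all were also higher with vehicle in lung. Most tested monocyte and macrophage genes were higher in the same lungs (given below), and which cells the transcripts came from was not tested. Of 13 tested genes of the mature neutrophil surface and cytoplasm, 9 were higher with vehicle than in young lungs and none lower (median log2 fold change 2.36, against 8.15% of all genes called higher), among them Fcgr4, an Fc receptor (4.89 ± 0.71), Clec4d, a lectin receptor (3.83 ± 0.66), and Slpi, a protease inhibitor (3.55 ± 0.46). Of 8 other specific and gelatinase granule genes 3 were higher: Itgam, the CD11b integrin chain (3.13 ± 0.70), Pglyrp1, a peptidoglycan-binding protein (2.53 ± 0.50), and Cybb, the oxidase catalytic subunit (1.90 ± 0.38). Of 6 phagocyte oxidase genes 5 were higher. Among chemoattractants and their receptors, 3 of 7 were higher, led by Cxcl5 (3.35 ± 0.74), and Cxcl15, a chemokine of the airway epithelium, was lower (-1.38). Of 9 genes listed for the G-CSF pathway and granulocyte transcription factors, 3 were higher: Socs3, a feedback inhibitor of cytokine receptors (2.34), Spi1, a transcription factor of myeloid cells (2.25), and Csf2rb, the receptor chain shared by GM-CSF and related cytokines (1.37). None of these is particular to G-CSF, and Csf3 itself was at 0 counts in every lung. Cd14 (1.44) and Myd88 (0.96), of the calprotectin receptor pathway, were higher among 5 tested, and of 10 other S100 genes S100a4 was higher (2.14) and S100g and S100a14 were lower. Lcn2, a specific-granule gene also made by epithelium, was not called (0.36 ± 0.38).

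Against vehicle, ABT-737 moved none of these lists past the threshold in lung. Of the 13 surface and cytoplasm genes, 9 had an unadjusted p under 0.05, with a median log2 fold change of -1.49 beside 0.0409 for all genes tested. The 8 specific and gelatinase granule genes had a median of -0.57 and the 6 oxidase genes one of -0.85.

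Defining markers of mature neutrophils had few counts. Ly6g had 6, 1, 6 and 2 counts in young lungs, 7, 15 and 14 with vehicle and 2, 3 and 5 with ABT-737. Cxcr2, the receptor for neutrophil-attracting chemokines, had 1 to 5, 6 to 12 and 1 to 12 counts in those groups, and Mmp8, neutrophil collagenase, at most 1, 8 and 4. Mmp9, gelatinase B, was better counted, with 30, 10, 13 and 37 counts in young lungs, 18, 42 and 13 with vehicle and 10, 27 and 19 with ABT-737. Vehicle lungs did not stand above young ones in Mmp9. Mpo, the marrow-stage azurophil enzyme, had 1 count in 10 lungs. Other cell types moved with vehicle too: the summed level of 12 monocyte and macrophage genes was 876 to 1055 CPM in young, 2935 to 7642 in vehicle and 1018 to 3659 CPM in ABT-737 lungs, and that of 8 T cell genes 145 to 184, 658 to 2771 and 200 to 486 CPM. All 8 T cell genes and 8 of 11 tested monocyte and macrophage genes were called higher with vehicle. Erythrocyte genes, a sign of blood left after perfusion, summed to 1823 to 3604, 3533 to 25105 and 6725 to 69495 CPM. Their part in the values of the 7 genes was not tested.

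The kidney carried few of these transcripts: the 7 genes had 10 counts in all in young, 56 in vehicle and 10 in ABT-737 kidneys. S100a9 had 1, 1, 0 and 0 counts in young kidneys, 6, 8 and 7 with vehicle and 0, 1 and 2 with ABT-737, and S100a8 had none in young kidneys, 3, 4 and 2 with vehicle and 0, 0 and 1 with ABT-737. For both genes the vehicle kidneys lay above every other kidney. The unfiltered fit called S100a9 (adjusted p = 0.00074) and S100a8 (adjusted p = 0.0102) higher with vehicle than in young mice, 2 of 7 genes where 10.6% of 17097 were called (edgeR). Pooled S100a9 was 19.7 times the young level (exact 95% interval 4.83 to 174, counting error only), and pooled S100a8 at least 5.64-fold higher. Without vehicle replicate 4, S100a9 was called and S100a8 was not.

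With ABT-737, S100a9 was lower than with vehicle by a pooled ratio of 6.72 (2.01 to 35.2), and S100a8 by 8.64 (1.20 to 379). Neither passed (edgeR without a filter, adjusted p = 0.0893 and 0.320, with 2.15% of all genes called), and with each library left out S100a9 ranged from -3.54 to -2.13 on the log2 scale (adjusted p = 0.0414 to 0.373), passing in 1 of 10 fits, that without vehicle replicate 3. Ngp was seen in vehicle kidneys alone, with 0, 5 and 1 counts, and Camp had 0, 4 and 0 counts there and 1 in an ABT-737 kidney. Retnlg, Csf3r and Ltf stayed at 4 counts or fewer in every kidney.

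Of the markers of mature neutrophils, Ly6g had 4, 5, 7 and 3 counts in young kidneys and 5, 3 and 2 with vehicle, Mmp9, gelatinase B, had 2, 4, 5 and 4 against 3, 0 and 2, Cxcr2 had at most 2 counts in any kidney and Mmp8 none. Vehicle kidneys thus did not stand above young ones in Ly6g or Mmp9. Other neutrophil-related genes passed the filter in kidney. Lcn2 was at 7, 7, 16 and 17 counts in young kidneys, 49, 60 and 47 with vehicle and 8, 19 and 28 with ABT-737, a log2 fold change of 2.67 ± 0.42 with vehicle (edgeR, adjusted p = 0.00049) and of -1.51 ± 0.43 with ABT-737 (adjusted p = 0.102). All 4 tested specific and gelatinase granule genes and all 5 of the surface and cytoplasm list were higher with vehicle than in young kidneys, where 7.75% of all genes were. Fcgr4 was the only 1 of these 9 called lower with ABT-737 (-1.72 ± 0.35, adjusted p = 0.0193, where 1.21% of all genes were). All 7 tested monocyte and macrophage genes were also higher with vehicle, their list summing to 805 to 1369 CPM beside 223 to 297 CPM in young and 320 to 554 CPM in ABT-737 kidneys. The 8 T cell genes summed to 17.4 to 18.9 CPM in young, 93.5 to 140 CPM in vehicle and 15.8 to 40.1 CPM in ABT-737 kidneys, and the erythrocyte genes to 1550 to 8416, 16768 to 17494 and 11217 to 17069 CPM. The part of these cells in the values of the 7 genes was not tested.

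In liver, 2 vehicle libraries held most of the counts. Over vehicle livers 3, 4 and 5, there were 1, 23 and 6 counts of S100a9, 1, 19 and 9 of Ngp, 0, 21 and 7 of Camp, 1, 7 and 1 of Ltf and 0, 6 and 2 of Retnlg, while S100a8 and Csf3r had 3 counts each in replicate 4 and none in the others. Replicate 3 was far shallower, with 223957 counts in all beside 847846 and 891116. By level the same livers stood at 4.36, 26.9 and 7.71 CPM for S100a9 and 4.36, 22.2 and 11.6 CPM for Ngp. For Ltf they stood at 4.36, 8.19 and 1.28 CPM, and each value of replicate 3 rests on 1 count. Young livers had at most 3 counts of any of the genes and ABT-737 livers at most 1. Replicate 4 was the highest of the 10 livers for all 7 genes.

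Without a filter, Camp, S100a9, Ngp, Ltf and Retnlg were called higher with vehicle than in young livers (5 of 7, with 13.6% of 14330 genes called by edgeR), and S100a9 (adjusted p = 0.00114), Ngp (adjusted p = 0.00122) and Camp (adjusted p = 0.0187) lower with ABT-737 than with vehicle (3 of 7, with 3.57% called). Without vehicle replicate 4, none of the 7 was called against young, and 1, Ngp, was called against ABT-737 (adjusted p = 0.0493). Pooled, S100a9 was 38.0 times (exact 95% interval 6.32 to 1551) and Camp 35.5 times (5.87 to 1451) the young level. Relative to vehicle, S100a9 and Ngp, with no count in 3 ABT-737 livers, were at least 6.36-fold and 6.14-fold lower. Vehicle replicate 4 held 23 of the 30 vehicle counts of S100a9, 19 of the 29 of Ngp and 21 of the 28 of Camp. Without it the ratios to young were 16.4 (2.11 to 739) for both S100a9 and Camp, and the bounds against ABT-737 were 2.74-fold for S100a9 and 3.92-fold for Ngp. These values cover counting error only.

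The same livers were high in other granule genes. Lcn2 had 0, 9, 0 and 1 counts in young livers, 19, 821 and 1011 in vehicle livers and 18, 4 and 1 after ABT-737. It was higher with vehicle than in young livers (log2 fold change 7.49 ± 0.97, adjusted p = 8.26e-05, where 11.7% of all genes were) and lower after ABT-737 than with vehicle (-5.19 ± 0.95, adjusted p = 0.00507, where 2.85% were). Hepatocytes also make Lcn2 in the acute-phase response, as they do haptoglobin, Hp, which moved in the same directions (2.22 ± 0.28 and -1.36 ± 0.30, both called). Prtn3, the azurophil protease, had 0, 5, 0 and 0, then 3, 160 and 151, then 15, 2 and 0 counts, and was called higher with vehicle (5.95 ± 0.97, adjusted p = 0.000488). Elane had 6 and 3 counts in the 2 vehicle libraries of high Lcn2 and none in the 8 other livers, and Mpo had 1, 3 and 1 counts in vehicle livers and none elsewhere. The 12 monocyte and macrophage genes summed to 2147 to 2390 CPM with vehicle, 426 to 599 in young and 360 to 663 CPM with ABT-737, with all 8 tested higher with vehicle. The T cell genes summed to 96.0 to 152 CPM with vehicle, 2.98 to 16.9 in young and 3.96 to 22.3 CPM with ABT-737, and the erythrocyte genes to 3957 to 4556, 516 to 1644 and 1597 to 3590 CPM. The part of these cells in the values of the 7 genes was not tested.

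In skin, 1 library dominated. S100a9 had 0, 0 and 1 counts in young skin, 3, 17 and 983 in vehicle skins 3, 4 and 5, and 2, 9 and 8 after ABT-737, so that vehicle replicate 5 held 96.1% of all S100a9 counts of that tissue. It also had 121 counts of Retnlg, 34 of S100a8, 33 of Csf3r, 15 of Ngp and 8 of Camp, where no other skin had more than 2, 6, 5, 2 and 2. Ltf was at 2 counts or fewer in every skin. Cxcr2 had 51 counts in that library and at most 2 in the others, Mmp8 10 and at most 1, and Csf3, the gene for G-CSF, 9 and at most 1. Lcn2 (200 counts, at most 26 in the others) and Mmp9 (189, at most 86) were also highest there. Ly6g set it less apart, with 3, 7 and 11 counts in vehicle skins 3, 4 and 5. Prtn3 had 10, 29 and 11 counts in them. Elane had 1007 to 2327 counts in every skin, the young included, whereas Mpo had none in young skin. What these Elane counts measure was not tested, and they are not read here as a neutrophil value. Its level was lowest in replicate 5 (341 CPM, against 384 to 789 CPM elsewhere).

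The unfiltered fit called S100a9, Csf3r and Retnlg higher with vehicle than in young skin (adjusted p = 0.0018, 0.0333 and 0.0272; 3 of 7, with 7.95% of 29019 genes called by edgeR). Without vehicle replicate 5, S100a9 alone was called (adjusted p = 0.0231). ABT-737 against vehicle gave none (S100a9 adjusted p = 0.0516, with 0.11% of all genes called), 6 of the 7 had their highest level in replicate 5, and without it S100a8 and Csf3r turned to log2 fold changes of 0.94 and 0.44. Vehicle replicate 5 stood apart in keratinocyte genes as well: the 7 genes of activated keratinocytes, such as Krt6a and Krt16, summed to 22660 CPM there and to 1462 to 4400 CPM in the other 8 skins. Its erythrocyte sum, 1268 CPM, was below those of the other vehicle skins (4812 and 14733 CPM), and its T cell sum of 423 CPM was the highest (64.4 to 220 CPM elsewhere). How far these bear on the 7 genes was not tested. In skin, 5 of 9 tested surface and cytoplasm genes, 3 of 7 specific and gelatinase granule genes and 6 of 6 oxidase genes were higher with vehicle than in young mice (5.84% of all genes were), and without replicate 5 these counts were 2, 0 and 1.

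Between ABT-737 and young mice outside lung, none of the 7 genes was called. In skin, S100a9 (2, 9 and 8 counts against 0, 0 and 1) and Csf3r (5, 2 and 1 against none) were higher in each ABT-737 library than in each young one, and pooled S100a9 was 10.4 times the young level (exact 95% interval 1.66 to 433, counting error only). Without a filter, edgeR called none of the 7 in kidney (2.64% of all genes called), liver (5.23%) or skin (5.74%), and 0 of the 7 had an unadjusted p under 0.05 in any of these tissues. With each skin library left out in turn, S100a9 was called in 2 of 9 fits (adjusted p = 0.000879 to 0.641). The counts behind these tests were 9 or fewer in every library, which leaves most differences undetectable.

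The 7 genes did not keep one proportion across libraries. Ngp and Camp together made up 13.8% of the 507 counts of the 7 genes in vehicle lung replicate 4 (exact 95% interval 10.9 to 17.1) and 1.01% to 5.63% in the 9 other lungs, whose upper bounds ended at 9.63% or below. In liver they made up 48.8% (37.6 to 60.1) in vehicle replicate 4 and 64.0% (42.5 to 82.0) in replicate 5. In vehicle kidney replicate 4 the share was 34.6% (17.2 to 55.7). It was 0% of 11 counts (upper bound 28.5) and 5.26% of 19 counts (0.133 to 26.0) in vehicle kidney replicates 3 and 5. For vehicle skin it was 1.92% (1.22 to 2.87) of 1196 counts in replicate 5 and 13.8% (3.89 to 31.7) of 29 counts in replicate 4. These intervals cover counting error only. Skin was counted on another annotation, whose 3′ ends lay 289 to 2000 bases from those used for the other tissues, so shares in skin are not on the same footing. The labels do not say whether vehicle replicate 4 of kidney, liver and lung came from one mouse.

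**Figure D5:**
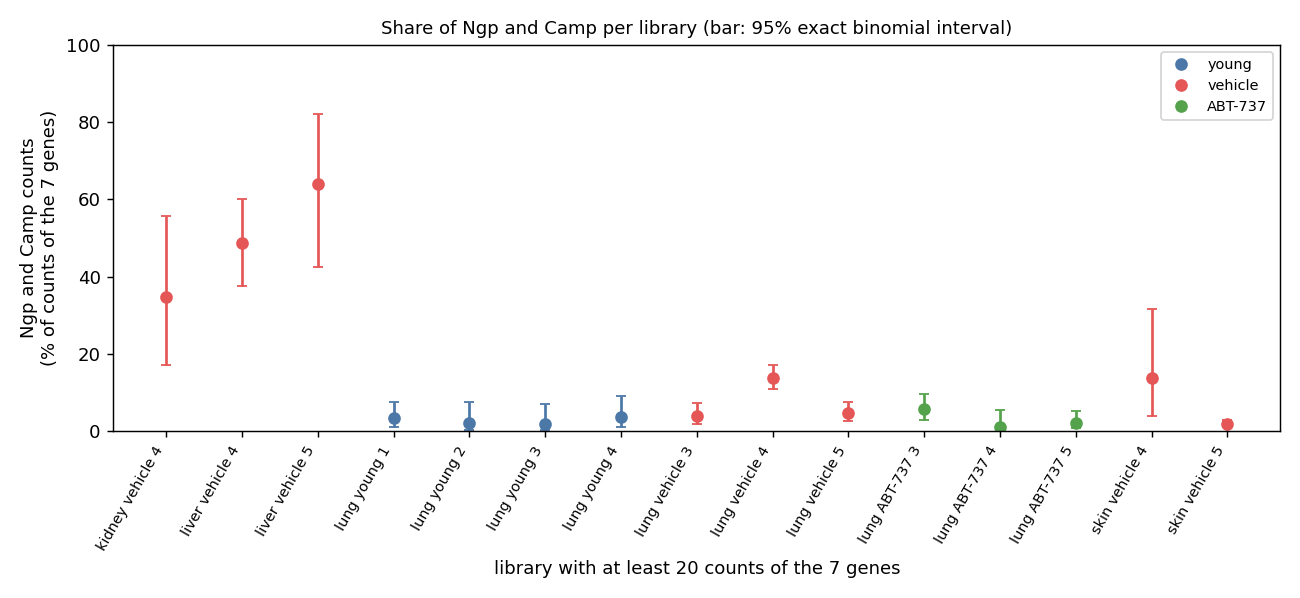
Share of Ngp and Camp among the counts of the 7 genes (vertical axis, percent; bar, 95% exact binomial interval) in each library with at least 20 such counts, coloured by group. Vehicle kidney replicate 4 and vehicle liver replicates 4 and 5 (34.6% to 64.0%) and vehicle lung replicate 4 (13.8%) stand above the other lungs. Vehicle skin replicate 4, on 29 counts, has a wide interval (3.89% to 31.7%).

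The subunits of calprotectin varied in ratio too. S100a9 had 3.00 to 4.89 counts for each count of S100a8 in young lungs, 2.42, 4.48 and 1.49 in the vehicle lungs 3, 4 and 5, and 7.31, 4.75 and 1.91 in the ABT-737 lungs 3, 4 and 5. Replicate 5 was the lowest of both treated groups. In vehicle skin replicate 5 the ratio was 28.9, on the other annotation.

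The effects in different tissues were compared in the model of 30 libraries. The change from young to vehicle differed between lung and liver for S100a9 (lung minus liver, log2 difference -3.80 ± 1.24, adjusted p = 0.0426), 1 of 7 genes where 11.4% of all were called, with a single S100a9 count in the 4 young livers. Without vehicle liver replicate 4 it was -2.66 (adjusted p = 0.276), and the call was kept in 21 of the 30 fits that each left out a library. Between lung and kidney the difference was -2.60 ± 0.95 for S100a9 (adjusted p = 0.0852) and -2.67 ± 0.97 for S100a8 (adjusted p = 0.0886), with 8.04% of all genes called. Between kidney and liver none of the 7 was called (0.786% of all). For ABT-737 against vehicle, none of the 7 was called between tissues. S100a9 had an adjusted p of 0.0856 for lung minus liver (0.29% of all genes called) and of 0.429 for lung minus kidney (0% called), and was the only 1 of the 7 with an unadjusted p under 0.05 in either. Kidney minus liver gave none (0.0839% called). DESeq2 gave none of the 7 an adjusted p in these differences.

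Across the 10 lungs, once group means were removed, the genes whose levels followed the mean of the 5 tested members most closely were Dsg2 (Pearson r = 0.979, Spearman rho = 0.952), Phf2 (r = 0.945), Tmie (0.93), Gjc1 (0.919) and Tmem39a (0.913), of 11944 genes ranked. Leaving out the 2 most distant lungs gave r of 0.948, 0.885, 0.882, 0.851 and 0.792. The rule asked for 20 libraries, which no gene reached, so the lungs alone were used, a choice made after the data were seen. The values come from the same libraries as the score and are given as a description. As the highest of 11944 over 10 lungs, such values can be large by selection alone, which was not tested.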

How the data were processed

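Whole-tissue RNA of 39 Prf1-/- mouse libraries was sequenced by a bulk form of MARS-seq. The authors deposited raw counts per gene, 1 table for kidney, liver and lung (RefSeq entries) and 1 for skin (Ensembl entries), both on mm10; per the labels, the tools were bcl2fastq, HISAT 0.1.5 and HOMER. Whether molecule barcodes were collapsed is not given in the sources used here. The labels name separate biological replicates. In 1 label field, treated libraries 4 and 5 read ABT-738 and ABT-739; their titles read ABT, which set the group.

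Counts were tested with edgeR 4.0.16 (R 4.3.3) by the quasi-likelihood test with TMM factors, filterByExpr and Benjamini-Hochberg adjustment over all genes tested, called at an adjusted p of 0.05, per tissue over 3 groups and, for differences between tissues, over 30 libraries in 9 groups. SE is the log2 fold change over the square root of F. How many of all genes had groups that did not overlap was not counted. Statements that groups of a member did not overlap thus have no background to be set against. DESeq2 1.42.0, other size factors, other filters, only the groups compared, each library left out, and the replicate number as a block were alternatives. The code was tested on simulated data. Vehicle and ABT-737 lungs of one number correlated at 0.185, 0.3 and 0.433 in their deviations, and vehicle 4 with ABT-737 3 at 0.315. The numbers were taken to pair these lungs in the block alternative alone, and the main tests used no pairing. In kidney, liver and skin the numbers were not taken to pair the groups. So few correlations cannot settle in any tissue whether the numbers mark pairs. The block also joined young lungs 3 and 4 to old lungs of those numbers, which no label relates. All 7 members are named in every tissue; of other lists, written from general knowledge, up to 3 called genes by size are named, with Lcn2, Mpo, Ly6g, Cxcr2, Mmp8, Mmp9 and Csf3 in any tissue. Cxcl15 in lung, Elane in liver, and Elane, Prtn3, Krt6a and Krt16 in skin were named after their values were seen. The members and lists were chosen with earlier results of these data known.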

Additional observations from a re-analysis of the deposited data

Results flagged for a closer look

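The change of S100a9 from young to vehicle differed between lung and liver (lung minus liver, log2 difference -3.80 ± 1.24, edgeR, adjusted p = 0.0426), by the interaction term of the model of 30 libraries. In that comparison 11.4% of all genes were called, and the S100a9 call was lost without vehicle liver replicate 4. S100a9 had 38 to 50 counts in young lungs and 58 to 206 in vehicle lungs, and 0, 0, 0 and 1 against 1, 23 and 6 in liver. The rule for outlying values asks for 4 libraries in a group and 3 counts a library on average. It was met by 5 of the genes in young lungs alone, and 0 of these 5 were flagged. All vehicle and ABT-737 groups, with 3 libraries each, were not examined.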

How the results depend on the processing

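The count of the 7 genes called in lung between vehicle and young was 2 in edgeR, 4 by DESeq2, 5 without a filter, 4 with only the groups compared, 1 with the replicate number as a block, and 1 to 5 over the 10 fits that each left out a library. S100a8 kept its call in all 10 of these. ABT-737 against vehicle gave 0 of the 7 in lung in each of these, and its S100a9 log2 fold change was -0.03, 0.13 under the block, and -0.44 to 0.42 with a library left out. The same ranges with a library left out were -0.99 to 0.046 for Csf3r, and -0.34 to 0.51 for Ltf against young. ABT-737 against young gave 0, 1 with only the groups compared (S100a9) and 0 to 1 with a library left out. Over all genes of lung, vehicle against young gave 1539 calls, 333 with the block, and ABT-737 against vehicle 0, 342 by DESeq2, 359 without a filter and 99 with the block.

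Without a filter the counts were 2 for kidney and 5 for liver (vehicle against young), 3 for liver (ABT-737 against vehicle) and 3 for skin (vehicle against young). Leaving out a library of that unfiltered fit, an alternative chosen after seeing the data, gave 1 to 3 in kidney, 0 to 5 and 1 to 3 in liver and 1 to 5 in skin, 0 to 1 in kidney and 0 to 3 in skin for ABT-737 against vehicle, and 0 to 2 in skin for ABT-737 against young. In skin, ABT-737 against vehicle ranged from -2.68 to 0.44 for Csf3r and -4.24 to 0.94 for S100a8. With the filter, skin vehicle against young ranged from 0 to 1. In the model of 30 libraries, counts ranged from 0 to 1 for young kidney against liver, for the change from young to vehicle in lung minus liver and lung minus kidney, and for the ABT-737 effect in lung minus liver (1 without a filter). The vehicle change of Ngp, lung minus liver, ranged from -1.67 to 0.39. A minimum of 10 counts in every library left no member to test outside lung. Beyond the lung calls of vehicle against young, no call of the 7 genes changed under the block, and in kidney, liver and skin none was tested in it. The numbers were not taken to pair the groups of those tissues. Causes were not tested.

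Low counts limit what can be said outside lung, where most values rest on fewer than 10 counts. Liver libraries were shallower than those of lung, whereas kidney and skin libraries were of like depth or deeper. A gene not seen in a tissue was not detectable at the depth of its libraries.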
